A study of Mus musculus with 8 samples.

Results

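Messenger RNA of 10 genes that move or store iron and zinc was followed in bone marrow mesenchymal stem cells (BMSCs) kept in osteogenic differentiation with extracts of polycaprolactone (PCL) scaffolds. The 5 iron genes were Fth1, Tfrc, Slc40a1, Ncoa4 and Steap3, and the 5 zinc genes were Mt2A, Mtf1, Slc30a1, Slc39a14 and Slc39a8. They were taken by gene name from the 26873 features of the deposited table, and all 10 were found. Slc40a1 occurs under 2 identifiers, of which the one with more reads was kept (4729 counts over all libraries against 1738). These genes had been picked with earlier results of the same libraries in view, so their values are given as a description without a test.

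The 8 libraries cover 4 extracts on day 3 and on day 7, with 1 library for each. Their labels are PCL-S, read as the S7 extract, PCL-E (E7), PCL-SE (S7 with E7) and PCL-O, which is taken as the blank because it is the remaining label. S7 and E7 are peptides per the series title, and neither their sequence nor their dose is stated in the labels. All cells are labelled wild type and as a BMSC line, all were in osteogenic differentiation, and all grew in DMEM with 10% FBS in which scaffolds had been soaked for 72 h. The extraction label gives n = 3 RNA samples, whereas the table has 1 column per extract and day, so a difference between single extracts has no replicate check. The organism is labelled Mus musculus, but 22050 features carry rat Ensembl identifiers and 4823 are new genes without a symbol.

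Iron enters most cells bound to transferrin through the transferrin receptor, is reduced in the endosome, is stored inside ferritin and leaves through ferroportin. Ferritin is returned to the usable pool by selective autophagy, and iron regulatory proteins bind transcripts of several of these genes. Cytosolic zinc is buffered by metallothioneins, is brought in by ZIP transporters (Slc39 genes) and is removed by ZnT transporters (Slc30 genes). The zinc-sensing transcription factor MTF1 binds short metal response elements in the promoters of metallothionein genes and of Slc30a1.

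Promoters of Mt1 and Slc30a1, textbook MTF1 targets, are shown because Mt2A and Slc30a1 stood on opposite sides of the libraries without S7. They are mouse RefSeq sequences of build GRCm38.p6, matched by symbol, whereas the identifiers in the table are rat. A promoter was found in this way for 7 of the 10 genes, with 15 promoters in all. No entry carried the symbol Mt2A, and other names of this gene were not searched. The promoter of its relative Mt1 stands in its place, so the Mt2A promoter itself was not examined. Capitals mark the metal response core TGCACNC or TGCGCNC on either strand.
Mt1, chr8:94178839-94179118, plus strand: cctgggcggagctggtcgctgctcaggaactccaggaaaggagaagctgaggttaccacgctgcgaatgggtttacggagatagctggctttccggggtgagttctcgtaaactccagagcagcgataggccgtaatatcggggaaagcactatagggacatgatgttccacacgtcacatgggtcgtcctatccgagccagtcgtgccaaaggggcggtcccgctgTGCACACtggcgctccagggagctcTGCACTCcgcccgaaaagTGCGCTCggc
Slc30a1, chr1:191906531-191906810, plus strand: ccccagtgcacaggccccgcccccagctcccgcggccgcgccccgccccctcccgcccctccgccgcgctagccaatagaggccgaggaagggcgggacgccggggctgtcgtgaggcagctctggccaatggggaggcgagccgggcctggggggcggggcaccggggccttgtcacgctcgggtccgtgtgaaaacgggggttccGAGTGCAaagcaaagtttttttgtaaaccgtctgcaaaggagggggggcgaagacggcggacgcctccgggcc
The Mt1 promoter holds 3 matches. The Slc30a1 window of 300 bases holds 2, of which 1 lies in the 280 bases printed. Of 32851 promoters of the same length, 25.7% hold at least 1 match and 1.97% hold 3 or more. A match describes letters and is not evidence of binding. For Tfrc, Ncoa4 and Slc39a8 some but not all of the promoters hold a match too, while none was found in these windows of Fth1, Steap3 or Mtf1.

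Library totals ran from 32950326 to 41754124 counts, and 15942 features passed the filter on low counts, all 10 genes among them. Levels below are CPM, counts scaled per library total, and 3 counts correspond to 0.0718 to 0.0911 CPM. Ratios and fold changes are log2 values scaled by TMM, a normalization that centres most genes on no change. Ratios of single libraries carry 2 CPM added to each side, which draws those of low genes towards 0: Slc40a1 in PCL-S on day 3 is -1.02 on this scale and 0.419-fold without the addition, and Steap3 in PCL-S on day 7 is 1.63 and 3.71-fold. All 9 stromal markers reached 1 CPM in some library, as did 4 of 7 osteoblast markers. Of 9 markers of macrophages, cells that recycle iron, 1 (Cd14) reached 1 CPM and 2 (Adgre1 and Cd163) had no count. The summed level of the 9 was 16.1 to 17.8 CPM with S7 against 6.64 to 7.32 CPM without it on day 3. On day 7 it was 18.7 to 19.8 CPM against 9.29 to 9.63 CPM. Nearly all of it was Cd14, at 15.6 and 17.1 CPM with S7 against 5.97 and 6.66 CPM on day 3. Markers under 1 CPM did not share a direction. On day 3 means with S7 were lower for Cd68 (0.328 against 0.419 CPM) and higher for Csf1r (0.225 against 0.159 CPM). Summed endothelial markers on day 3 were 12.8 to 14.4 CPM with S7 and 5.68 to 6.83 CPM without it. Nearly all of this sum was Tek, at 12.6 and 14.1 CPM with S7 against 5.42 and 6.37 CPM. Vwf was lower with S7 on day 3 (mean 0.0587 against 0.361 CPM), Kdr reached at most 0.244 CPM and Cdh5 had no count. Erythroid markers summed to at most 0.773 CPM. Summed stromal markers were 5940 to 6121 CPM with S7 and 5237 to 5377 CPM without it on day 3, and 3313 to 3405 CPM against 4897 to 5085 CPM on day 7. Summed osteoblast markers were 30909 to 33294 CPM with S7 and 19606 to 21070 CPM without it on day 3, and 7370 to 8105 CPM against 16402 to 26088 CPM on day 7. Itgb1 and Col1a1 carry most of these sums, and other markers went the other way on day 7. Spp1 stood at 1680 and 2795 CPM with S7 against 1296 and 1022 CPM. Cd44 stood at 505 and 503 CPM against 225 and 290.03 CPM. Pdgfra stood at 77.6 and 82.2 CPM against 51.5 and 33.6 CPM, and Runx2 at 30.2 and 35.2 CPM against 19.6 and 24.1 CPM. The remaining stromal and osteoblast markers that reached 1 CPM had lower means with S7 on day 7. Some markers went against the higher sums of day 3 too. Mean levels with S7 were lower for Pdgfrb (549 against 633 CPM), Lepr (2.13 against 4.02 CPM) and Cxcl12 (1.05 against 2.37 CPM). Among osteoblast markers, Alpl was lower on day 3 (7.36 against 11.0 CPM). The part of these marker differences in the values below was not tested, and in bulk RNA fewer cells of a type and less RNA per cell cannot be told apart.

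Fth1 encodes the ferritin heavy chain, the subunit that oxidises iron for storage. Its levels on day 3 were 655.6 CPM in PCL-O, 734.7 in PCL-E, 1183 in PCL-SE and 1068 in PCL-S. Its levels on day 7 were 448.5 CPM in PCL-O, 1082 in PCL-E, 5729 in PCL-SE and 6857 in PCL-S. Both libraries with S7 were above both without it on each day, and on day 7 PCL-E also stood above PCL-O. The log2 ratio to PCL-O on day 7 was 1.17 in PCL-E, 3.39 in PCL-SE and 3.66 in PCL-S. Fth1 was the most abundant of the 10 per transcript length, at 507 to 7787 FPKM (the deposited level per kilobase), and no range of another gene reached its lowest value. Ferritin heavy and light chain reads together (Fth1 and Ftl1) took 0.0522% of counts in PCL-O on day 7 and 0.720% in PCL-S.

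Ncoa4 encodes the receptor that delivers ferritin to autophagy. On day 3 it stood at 101.4 CPM in PCL-O, 104.3 in PCL-E, 106.1 in PCL-SE and 106.3 in PCL-S. On day 7 it stood at 100.9 CPM in PCL-O, 119.0 in PCL-E, 195.8 in PCL-SE and 184.5 in PCL-S. The day 3 libraries lay close together, and the libraries that stood apart were those with S7 on day 7, with log2 ratios to PCL-O of 0.59 and 0.67.

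Steap3 encodes the ferrireductase of the transferrin endosome. Day 3 levels were 4.14 CPM in PCL-O, 4.99 in PCL-E, 5.81 in PCL-SE and 5.98 in PCL-S. Day 7 levels were 6.58 CPM in PCL-O, 7.35 in PCL-E, 30.3 in PCL-SE and 29.4 in PCL-S. The day 7 libraries with S7 were far above the other 6, with log2 ratios to PCL-O of 1.66 in PCL-SE and 1.63 in PCL-S, beside 0.05 in PCL-E.

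Tfrc encodes the transferrin receptor, whose transcript is a textbook target of iron regulatory proteins. In the day 3 libraries it stood at 84.3 CPM in PCL-O, 84.9 in PCL-E, 79.9 in PCL-SE and 76.8 in PCL-S. In the day 7 libraries it stood at 92.1 CPM in PCL-O, 97.0 in PCL-E, 80.3 in PCL-SE and 72.4 in PCL-S. Libraries with S7 were lower on both days, narrowly on day 3. The day 7 log2 ratios to PCL-O were -0.60 in PCL-S and -0.46 in PCL-SE. Their size depended on scaling, since library totals gave -0.34 and -0.19.

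Slc40a1 encodes ferroportin, the cellular iron exporter. Day 3 gave 12.7 CPM in PCL-O, 13.9 in PCL-E, 4.26 in PCL-SE and 5.29 in PCL-S. Day 7 gave 7.68 CPM in PCL-O, 20.4 in PCL-E, 34.9 in PCL-SE and 31.4 in PCL-S. The libraries with S7 were the lowest on day 3 and the highest on day 7, without overlap on either day. The log2 ratio to PCL-O on day 3 was -1.25 in PCL-SE and -1.02 in PCL-S, and on day 7 it was 1.68 and 1.54. PCL-E lay near PCL-O on day 3 (0.09) and above it on day 7 (1.13). The second identifier of the same name, which was left out, also had both S7 libraries lowest on day 3 and highest on day 7, with 4.72 CPM in PCL-O, 4.52 in PCL-E, 1.67 in PCL-SE and 1.54 in PCL-S on day 3. Its levels on day 7 were 2.34 CPM in PCL-O, 7.02 in PCL-E, 13.5 in PCL-SE and 12.8 in PCL-S, and how reads of this gene were split between both identifiers is not known.

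Mt2A encodes a metallothionein, a small protein that binds zinc and copper. Its levels on day 3 were 0.579 CPM in PCL-O, 1.64 in PCL-E, 10.7 in PCL-SE and 12.2 in PCL-S. On day 7 it stood at 0.698 CPM in PCL-O, 2.71 in PCL-E, 44.9 in PCL-SE and 58.9 in PCL-S. The exact 95% Poisson interval, which covers counting error only, was 0.354 to 0.895 CPM for PCL-O on day 3, which rests on 20 counts, and 56.3 to 61.6 CPM for PCL-S on day 7. The libraries with S7 were above the others on both days, and PCL-E was above PCL-O on both days with intervals that do not overlap. The log2 ratio to PCL-O, with 2 CPM added to each side, on day 3 was 2.36 in PCL-SE and 2.53 in PCL-S, and on day 7 it was 3.90 and 4.28; adding 2 CPM shrinks the ratio of a gene this low, and without it the day 7 folds were 53.1 and 70.0. Mt2A took between 54.1% and 93.4% of the reads assigned to Mt1, Mt1m and Mt2A, and since these transcripts are alike, how reads were split between them is uncertain.

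Mtf1 encodes the zinc-sensing transcription factor. On day 3 it stood at 6.98 CPM in PCL-O, 7.78 in PCL-E, 9.40 in PCL-SE and 9.25 in PCL-S. Day 7 levels were 11.0 CPM in PCL-O, 8.45 in PCL-E, 13.9 in PCL-SE and 13.1 in PCL-S. The libraries with S7 were higher on day 3, whereas on day 7 the groups overlapped after TMM (log2 ratios to PCL-O of 0.05 in PCL-SE and -0.01 in PCL-S) and were apart by library totals.

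Slc30a1 encodes the plasma membrane zinc exporter ZnT1. Day 3 levels were 30.9 CPM in PCL-O, 31.9 in PCL-E, 26.4 in PCL-SE and 28.2 in PCL-S. In the day 7 libraries it stood at 34.3 CPM in PCL-O, 31.0 in PCL-E, 27.0 in PCL-SE and 28.8 in PCL-S. The libraries with S7 were lower on both days. Log2 ratios to PCL-O in PCL-S and PCL-SE were -0.12 and -0.21 on day 3 and -0.48 and -0.58 on day 7. By library totals the day 7 ratios were -0.23 and -0.32. Under both scalings the exporter, whose promoter is printed above, stood on the other side of PCL-O from Mt2A in PCL-S and PCL-SE.

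Slc39a14 encodes ZIP14, an importer of zinc that also carries iron not bound to transferrin. In the day 3 libraries it stood at 65.2 CPM in PCL-O, 72.0 in PCL-E, 100.4 in PCL-SE and 102 in PCL-S. Day 7 gave 68.9 CPM in PCL-O, 73.7 in PCL-E, 82.3 in PCL-SE and 80.4 in PCL-S. The libraries with S7 stood apart on day 3 (log2 ratios to PCL-O of 0.65 and 0.61). On day 7 the position depended on scaling, since they were narrowly lower after TMM (-0.04 and -0.02) and higher by library totals.

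Slc39a8 encodes ZIP8, an importer of zinc, manganese and iron. Day 3 gave 6.32 CPM in PCL-O, 5.53 in PCL-E, 6.58 in PCL-SE and 7.52 in PCL-S. Its levels on day 7 were 6.98 CPM in PCL-O, 8.12 in PCL-E, 13.1 in PCL-SE and 12.6 in PCL-S. The groups were apart on both days, but on day 3 the counting interval of PCL-O (5.51 to 7.21 CPM) overlapped those of PCL-SE (5.74 to 7.50 CPM) and PCL-S (6.70 to 8.40 CPM), and that of PCL-E (4.78 to 6.37 CPM) overlapped that of PCL-SE.

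**Figure D1:**
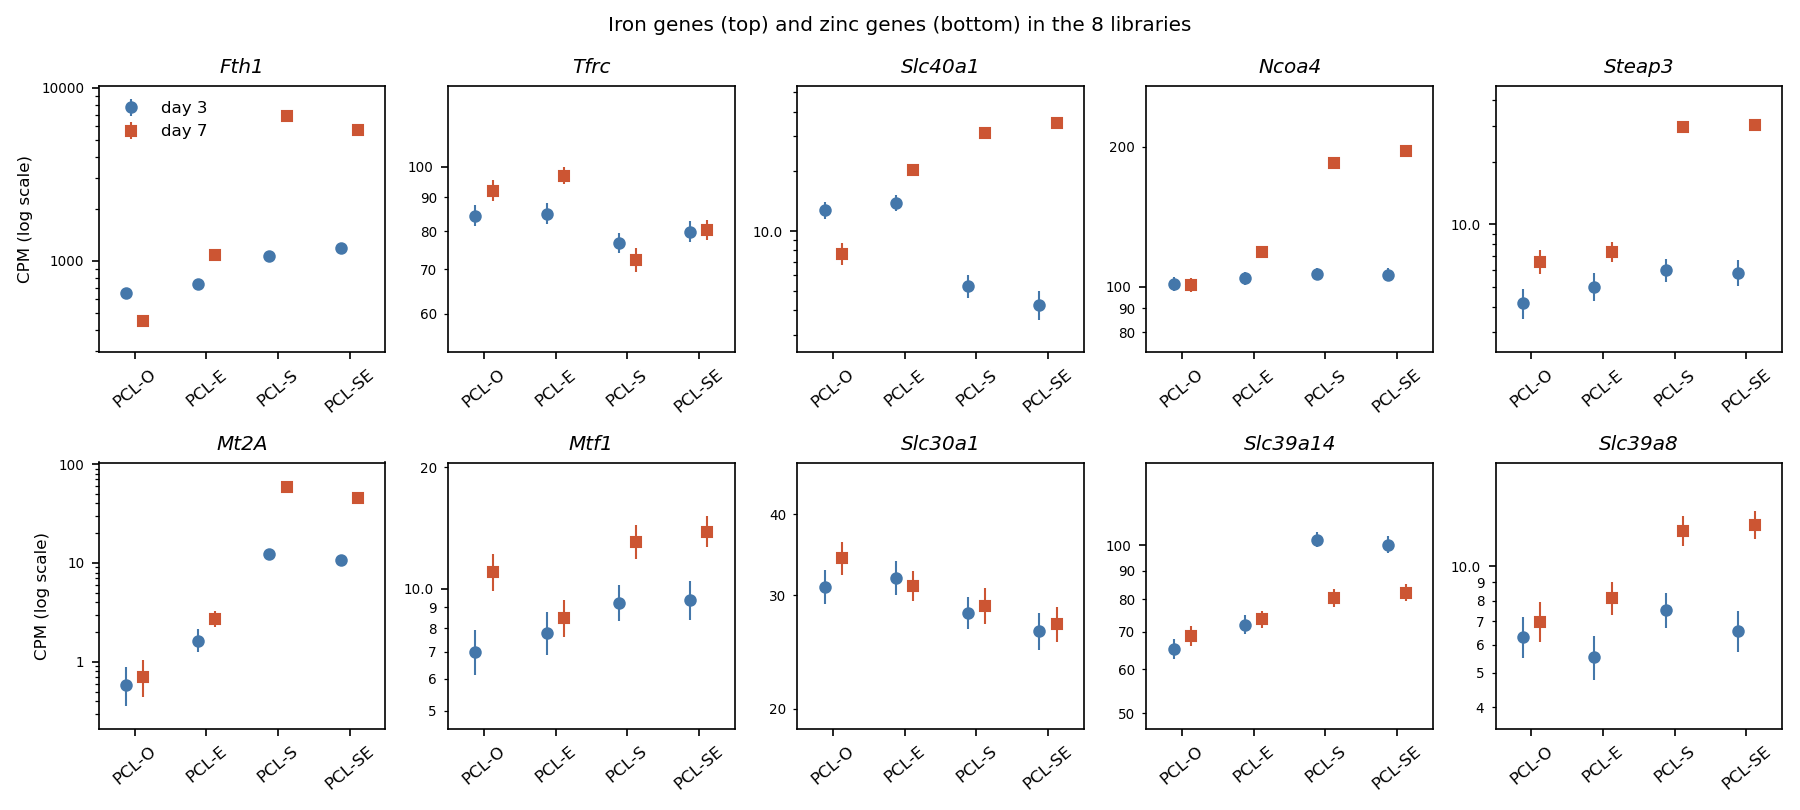
CPM of the 10 genes in the 8 libraries on log axes, with extracts on the horizontal axis, circles for day 3, squares for day 7, and bars for exact 95% Poisson intervals, each point being 1 library. Fth1, Ncoa4, Steap3 and Mt2A stand highest in both S7 extracts on day 7, Slc40a1 is lowest in these extracts on day 3 and highest on day 7, and Slc39a14 is highest in them on day 3.

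Per transcript length, the order of mean deposited FPKM over the 8 libraries was Fth1 (2515), Mt2A (40.7), Ncoa4 (35.1), Tfrc (16.4), Slc39a14 (16.1), Slc30a1 (10.7), Slc40a1 (4.74), Steap3 (3.70), Slc39a8 (2.42) and Mtf1 (2.18). The ranges over libraries did not overlap between Fth1 and Mt2A, between Ncoa4 and Tfrc, or between Slc39a14 and Slc30a1. Every other pair of neighbours in this order overlapped. Mt2A spanned 1.37 to 145 FPKM, so its rank held for some libraries only.

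Against PCL-O, genes 2-fold or more apart were counted for single libraries, with 2 CPM added to each side here and in the counts that follow. On day 3, 1 of the 10 genes was that much higher in PCL-S (Mt2A; 2.08% of all tested genes were) and 1 that much lower (Slc40a1; 2.50% were). The same genes were the 1 higher and the 1 lower in PCL-SE, where 2.12% and 2.46% of all tested genes were. On day 7, 4 of 10 were that much higher in PCL-S (Fth1, Slc40a1, Steap3 and Mt2A; 5.28% of all) and 0 lower (8.31% of all). PCL-SE gave the same 4 and 0, against 4.79% and 7.82% of all. These comparisons share PCL-O on each day and the genes were chosen with such ratios known, so no support is read from the shares.

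PCL-E was set against PCL-O in the same way. On day 3 it had 0 of the 10 genes past 2-fold, against 0.370% of all tested genes in either direction. On day 7 it had 2 higher (Fth1 and Slc40a1; 0.715% of all) and 0 lower (0.878% of all). Without the added 2 CPM, Mt2A would also pass in PCL-E, at 2.79-fold on day 3 and 3.63-fold on day 7, while no other of the 10 genes would change its place in these counts. For PCL-SE against PCL-S, 0 of the 10 passed 2-fold on day 3 (0.207% of all) and 0 on day 7 (0.326% of all), and the log2 ratios ran from -0.23 (Slc40a1) to 0.14 (Fth1) on day 3 and from -0.38 (Mt2A) to 0.14 on day 7. With 1 library a side, these ratios have no interval that includes variation between cultures, so they do not show that S7 with E7 and S7 alone act alike.

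Within an extract, day 7 was set against day 3. In PCL-S 4 of the 10 genes were 2-fold or more higher on day 7 (3.68% of all tested genes) and 0 lower (7.11%). PCL-SE gave 4 higher (3.26%) and 0 lower (6.48%), and the 4 were Fth1, Slc40a1, Steap3 and Mt2A in both extracts. In PCL-O 0 genes passed 2-fold in either direction (1.61% of all), and in PCL-E 0 did (1.81% of all). The log2 ratio of day 7 to day 3 for Fth1 was -0.58 in PCL-O, 0.46 in PCL-E, 1.97 in PCL-SE and 2.37 in PCL-S. That for Slc40a1 was -0.64 in PCL-O, 0.41 in PCL-E, 2.30 in PCL-SE and 1.93 in PCL-S. Both genes were thus lower on day 7 than on day 3 in PCL-O and higher in the other 3 extracts.

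**Figure D2:**
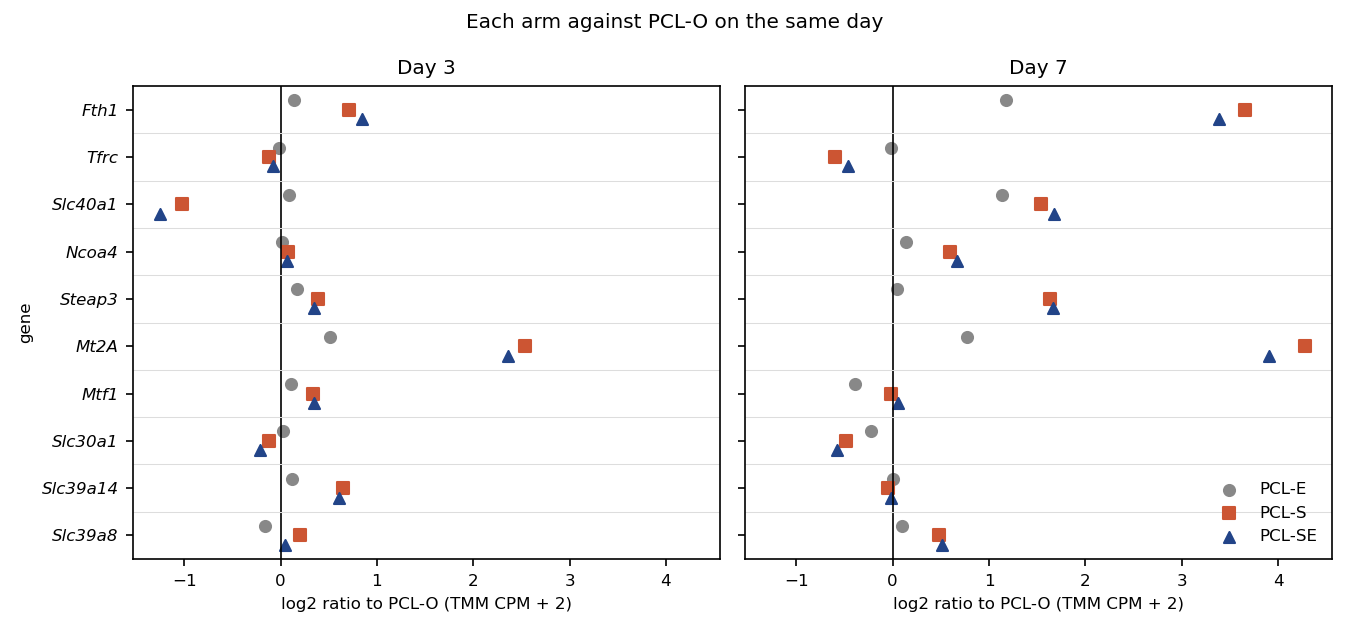
Log2 ratio of each extract to PCL-O on the same day (TMM CPM with 2 added), for each gene on the vertical axis, with day 3 on the left and day 7 on the right; circles are PCL-E, squares PCL-S and triangles PCL-SE, each from 1 library over 1 library. PCL-S and PCL-SE lie close together, Slc40a1 changes side between the days (-1.02 and -1.25 on day 3, 1.54 and 1.68 on day 7), and Fth1 and Slc40a1 are past 1 in PCL-E on day 7.

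The extracts were also grouped by S7, with PCL-S and PCL-SE against PCL-O and PCL-E on each day, in 1 model over the 8 libraries. On day 3, 7 of the 10 genes were higher in both S7 libraries than in both others and 3 were lower (Tfrc, Slc40a1 and Slc30a1), but 68.5% of all tested genes were apart in this way (35.2% higher and 33.4% lower). In Tfrc, Ncoa4, Steap3, Mtf1, Slc30a1 and Slc39a8 the counting intervals of some S7 library and some library without S7 overlapped on day 3. On day 7, 6 were higher, 3 were lower (Tfrc, Slc30a1 and Slc39a14) and Mtf1 overlapped, against 75.1% of all tested genes apart (36.7% higher and 38.4% lower). By library totals 8 were higher and 2 lower. For Slc30a1 the day 7 counting intervals of PCL-S (27.0 to 30.7 CPM) and PCL-E (29.3 to 32.8 CPM) overlapped. Slc39a14 was only narrowly lower after TMM, at 69.9 and 71.2 CPM with S7 against 72.2 and 72.2 CPM. Fitted log2 fold changes with S7 on day 7, ± SE with n = 2 libraries a side, were 4.76 ± 0.53 for Mt2A, 2.90 ± 0.32 for Fth1, 1.88 ± 0.13 for Steap3, 1.08 ± 0.33 for Slc40a1, 0.57 ± 0.08 for Ncoa4 and 0.54 ± 0.15 for Slc39a8. They were -0.53 ± 0.08 for Tfrc, -0.45 ± 0.09 for Slc30a1, -0.03 ± 0.08 for Slc39a14 and 0.25 ± 0.17 for Mtf1. On day 3 the values furthest from 0 were 3.43 ± 0.55 for Mt2A, -1.44 ± 0.35 for Slc40a1, 0.71 ± 0.30 for Fth1 and 0.58 ± 0.08 for Slc39a14. Each side pools different extracts, so these SE do not measure a spread of replicates. The model also holds 1 E7 difference for both days. Yet the log2 ratio of PCL-E to PCL-O for Fth1 was 0.14 on day 3 and 1.17 on day 7.

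Profiles most like those of 4 genes were sought among 10187 named genes with a mean of at least 5 CPM, by the mean absolute difference of centred log2 levels over the 8 libraries. This is a description over 8 points that share libraries. Fth1 was closest to Best1 (0.0834), Osgin1 (0.176) and Fgf7 (0.207), beside its own range of 3.66. Best1 is the next protein-coding gene to Fth1 in the mouse reference without overlapping it, and its counts were 27.8% to 33.6% of those of Fth1 in every library, so reads of these neighbours may not be fully separated. Tfrc was closest to Klhl5 (0.0249), Ss18 (0.0250) and Phtf1 (0.0304). Slc40a1 was closest to Tiparp (0.203), Avpr1a (0.249) and Cd24 (0.253), and Mt2A to Sgk1 (0.405), Ptgr1 (0.413) and Lgals3 (0.460).

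Other genes of the same pathways were tested with edgeR's quasi-likelihood test and Benjamini-Hochberg adjustment over all 15942 genes, calling those with an adjusted p under 0.05. This list and the zinc and copper lists below were chosen with earlier results of these data known, so no support is read from their shares. Of the other 48 iron and haem genes listed, 39 could be tested. On day 7, 27 of the 39 changed with S7, 19 upwards and 8 downwards, against 51.0% of all tested genes (24.9% higher and 26.2% lower). After TMM 3965 of all tested genes were higher and 4172 lower; library totals gave 5642 and 3008, and moved the median of all genes from -0.03 to 0.19. The median of the list was 0.32 after TMM and 0.55 by library totals. Each side pools different extracts, so these p-values rest on how alike the pooled extracts are.

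The rises on day 7 included genes of haem breakdown and haem transport. Hmox1, the inducible haem oxygenase, stood at 182 CPM in PCL-O, 687 in PCL-E, 2767 in PCL-SE and 2907 in PCL-S (log2 fold change 2.62 ± 0.49, adjusted p = 0.00471). Slc48a1, which carries haem out of lysosomes, rose by 1.67 ± 0.21 (adjusted p = 0.00105), and Blvrb, a biliverdin reductase, by 1.62 ± 0.15 (adjusted p = 0.000403). Ftl1, the ferritin light chain, rose from 86.4 ± 18.6 to 352 ± 7.58 CPM (mean ± SD, n = 2 each; 1.82 ± 0.23, adjusted p = 0.00100), but it has near-identical copies and its value is uncertain. PCL-E lay above PCL-O in Hmox1, as it did in Fth1.

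The falls on day 7 were largest in Flvcr2, a transporter gene of the FLVCR family (-2.05 ± 0.20, adjusted p = 0.000445), and in Bmp6, the growth factor that signals iron status to the liver (-1.24 ± 0.24, adjusted p = 0.00592). Lrp1, a receptor that takes up haem bound to haemopexin, gave -1.12 ± 0.17 (adjusted p = 0.00229), and Cp, the ferroxidase ceruloplasmin, -1.01 ± 0.24 (adjusted p = 0.0117). The call of Cp on day 7 is lost without PCL-SE on day 7 (adjusted p = 0.0996).

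On day 3, 8 of the 39 other iron genes changed with S7, 6 upwards and 2 downwards, against 14.0% of all tested genes (7.10% higher and 6.87% lower), with a list median of 0.03 beside 0.00 for all genes. Scara5, a receptor for ferritin, stood at 10.0 CPM in PCL-O, 16.5 in PCL-E, 72.6 in PCL-SE and 70.3 in PCL-S (2.50 ± 0.41, adjusted p = 0.0109). Cp (1.62 ± 0.23, adjusted p = 0.00659) and Heph (1.09 ± 0.21, adjusted p = 0.0188), both ferroxidases that work with ferroportin, rose, as did the STEAP family genes Steap1 (1.34) and Steap2 (0.40) and transferrin, Tf (0.28). Flvcr2 fell by 1.72 and Neo1 (neogenin, which binds hemojuvelin) by 0.56. With 1 library left out, the count of 8 became 1 without PCL-S, 2 without PCL-O or PCL-E and 3 without PCL-SE of day 3, and 13 without PCL-E or 14 without PCL-O of day 7; Flvcr2 is the gene called in all 8 of these fits.

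The difference with S7 itself differed between the days in 15 of the 39 other iron genes, 9 with a larger and 6 with a smaller value on day 7, against 28.7% of all tested genes (13.2% and 15.5%); library totals gave 15 and 6. Hmox1 gave 3.30 ± 0.67 (adjusted p = 0.0134), Ftl1 2.0 ± 0.32 (adjusted p = 0.00658), Alas1, the entry enzyme of haem synthesis, 1.57 ± 0.20 (adjusted p = 0.00353) and Slc48a1 1.53 ± 0.29 (adjusted p = 0.0112). Cp gave -2.63 ± 0.33 (adjusted p = 0.00325), Bmp6 -1.73, Heph -1.55 and Lrp1 -1.26. Cp in PCL-S stood at 37.5 CPM on day 3 and 7.34 CPM on day 7, and in PCL-SE at 35.5 and 7.04 CPM, while Slc40a1 was low in these libraries on day 3 and high on day 7. Ceruloplasmin and ferroportin transcripts thus stood on opposite sides of the libraries without S7 on day 3, and on day 7 Cp was the lower and Slc40a1 the higher. Cp in PCL-O stood at 10.7 CPM on day 3 and 8.68 CPM on day 7, and in PCL-E at 13.6 and 16.8 CPM. The day 7 gap of Cp was therefore narrow against PCL-O and wider against PCL-E. The count of 15 ranged from 5 without PCL-SE of day 3 or PCL-S of day 7, over 7 without PCL-O and 9 without PCL-S of day 3, to 23 without PCL-E of day 7.

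**Figure D3:**
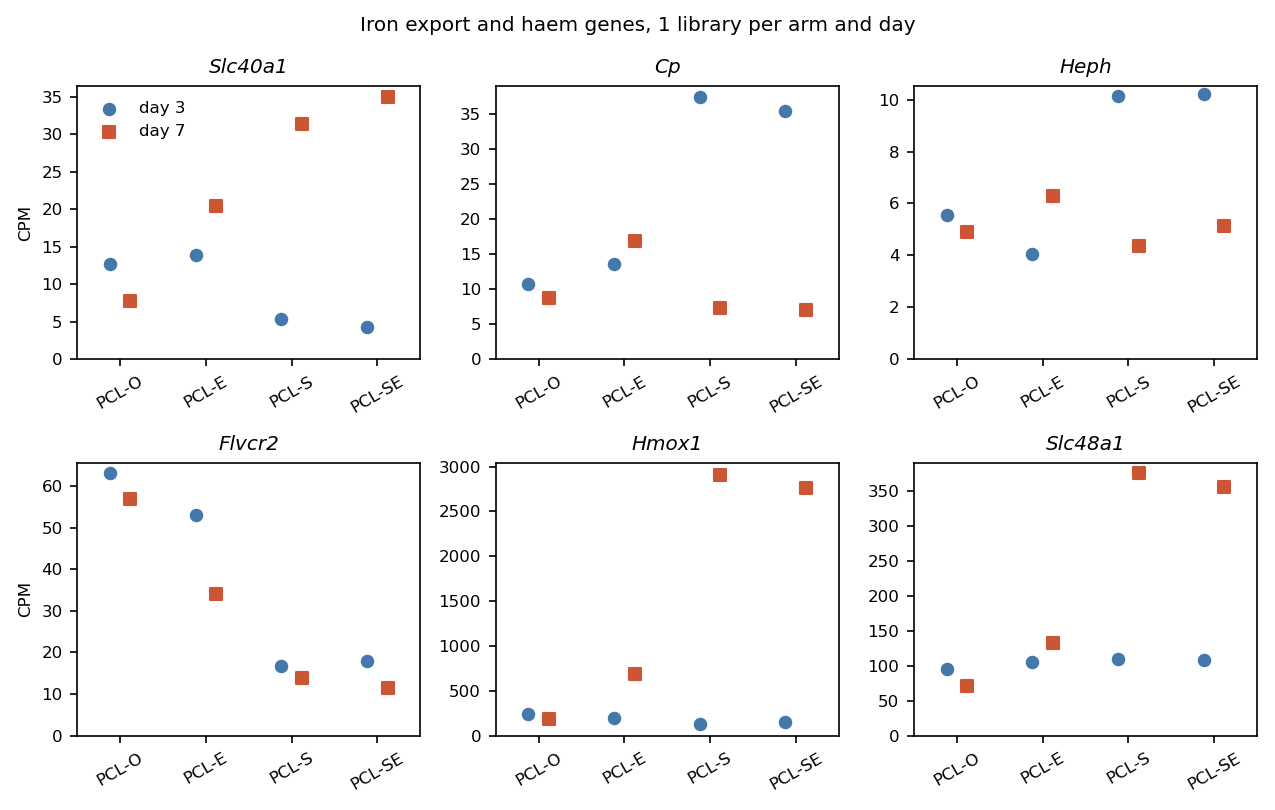
CPM of Slc40a1, the ferroxidases Cp and Heph, and the haem genes Flvcr2, Hmox1 and Slc48a1 in each extract, with circles for day 3 and squares for day 7, each point being 1 library. Cp and Heph are highest in both S7 extracts on day 3, Slc40a1, Hmox1 and Slc48a1 are highest in them on day 7, and Flvcr2 is lowest in them on both days.

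Of 26 other zinc genes listed, 18 could be tested, and 10 of these changed with S7 on day 7, 4 upwards and 6 downwards, beside the 51.0% of all tested genes, with a list median of -0.03. The split depends on scaling, since library totals gave 5 called genes, 4 upwards and 1 downwards. The metallothionein Mt1 stood at 0.455 CPM in PCL-O, 0.144 in PCL-E, 5.33 in PCL-SE and 6.25 in PCL-S (4.13 ± 0.41, adjusted p = 0.000451). Mt1m, with at most 0.637 CPM in any library, gave 4.10 ± 1.29 (adjusted p = 0.0348), a call lost in 6 of the 8 fits with 1 library left out. Slc39a3 (0.55 ± 0.10) and Slc39a13 (0.39 ± 0.07), both of the ZIP family, rose. The falls were in the ZIP family genes Slc39a6 (-0.28), Slc39a9 (-0.40) and Slc39a10 (-0.44) and in the ZnT family genes Slc30a4 (-0.40), Slc30a7 (-0.40) and Slc30a9 (-0.54), and by library totals Slc30a9 is the 1 of these 6 still called. The call of Slc39a6 was lost in 7 of the 8 fits with 1 library left out, and that of Slc30a4 in 2. Without PCL-S of day 7 the count of 10 became 4.

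On day 3, 2 of the 18 zinc genes changed, Slc39a1 (-0.38 ± 0.08, adjusted p = 0.0306) and Slc39a10 (-0.45 ± 0.09, adjusted p = 0.0202), both downwards, beside the 14.0% of all tested genes, and the list median was -0.04. Leaving out any day 3 library left 0 called zinc genes, leaving out PCL-S or PCL-SE of day 7 left 1, and leaving out PCL-O or PCL-E of day 7 gave 4. The difference with S7 differed between the days in 3 genes, Mt1 (2.91 ± 0.61), Slc39a3 (0.72 ± 0.14) and Slc39a13 (0.42 ± 0.11), all larger on day 7, beside the 28.7% of all tested genes. These 3 calls were lost in 5, 3 and 6 of the 8 fits with 1 library left out, and the count of 3 ranged from 0 without PCL-E or PCL-SE of day 3 to 6 without PCL-E of day 7.

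Copper shares metallothioneins and the ferroxidase Cp with these pathways, and 11 copper genes were tested. On day 7, 8 of 11 changed with S7, 6 upwards and 2 downwards, beside the 51.0% of all tested genes, with a list median of 0.39 (7 and 1 by library totals). Sod1, a copper and zinc superoxide dismutase, stood at 75.4 CPM in PCL-O, 94.6 in PCL-E, 201 in PCL-SE and 206 in PCL-S (1.04 ± 0.09, adjusted p = 0.000294). Its copper chaperone Ccs (0.74 ± 0.14), the mitochondrial copper genes Cox17 (0.68 ± 0.13) and Sco1 (0.38 ± 0.11), the chaperone Atox1 (0.45 ± 0.10) and Slc31a2 (0.39 ± 0.12) rose, but the call of Slc31a2 was lost in 6 and that of Sco1 in 5 of the 8 fits with 1 library left out. The exporter Atp7a (-0.80 ± 0.10, adjusted p = 0.000900) and the importer Slc31a1 (-0.38 ± 0.07) fell, though by library totals Slc31a1 was not called. Without PCL-S of day 7 the count of 8 became 5. On day 3, 1 gene was called beside the 14.0% of all tested genes, Cox11 (-0.49 ± 0.12, adjusted p = 0.0417), a call lost in 6 of the 8 fits, those without any 1 of the day 3 libraries among them. In 5 genes the difference with S7 differed between the days (6 by library totals, all upwards), upwards for Sod1 (0.99), Sco1 (0.71), Cox17 (0.66) and Slc31a2 (0.65) and downwards for Atp7a (-0.45), beside the 28.7% of all tested genes. This count of 5 became 1 without PCL-O, PCL-S or PCL-SE of day 3 or PCL-S of day 7, 2 without PCL-E of day 3 or PCL-O or PCL-SE of day 7, and 6 without PCL-E of day 7; the call of Sod1 is the one held in all 8 fits.

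**Figure D4:**
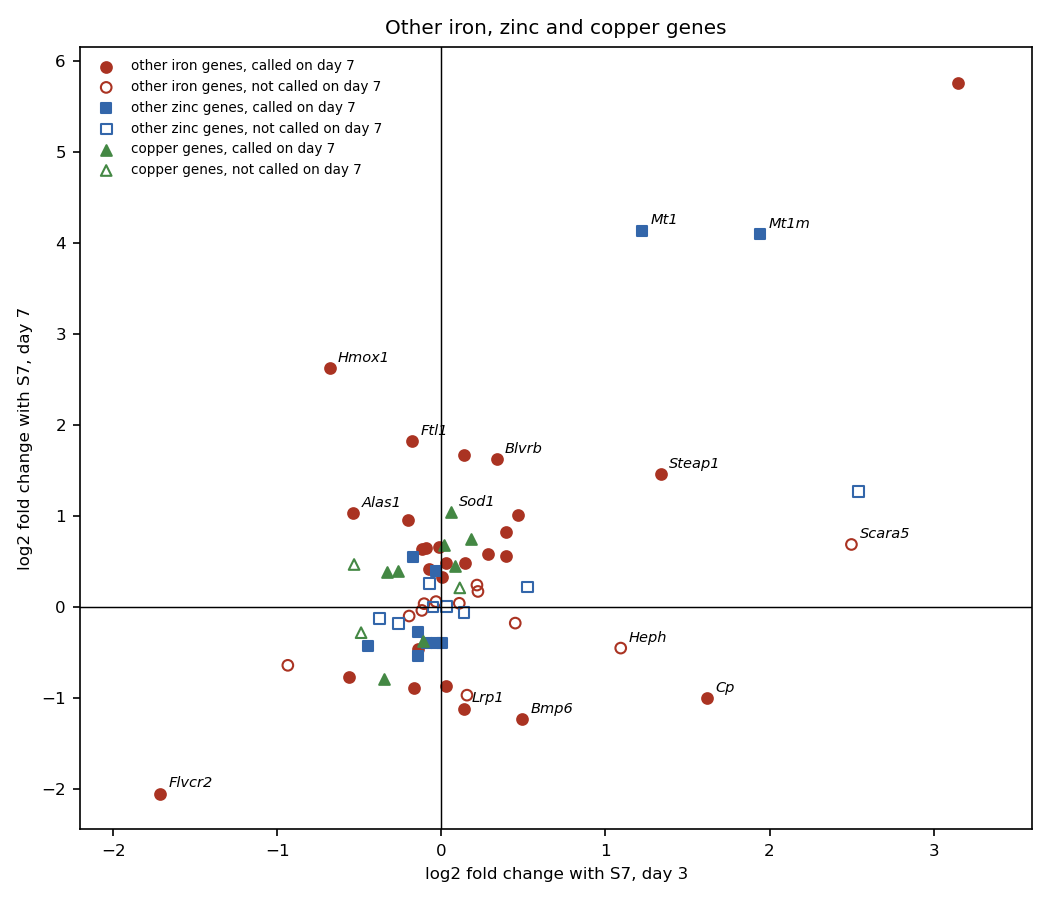
Fitted log2 fold change with S7 on day 3 (horizontal) and day 7 (vertical) for the tested genes of the other iron (circles), other zinc (squares) and copper (triangles) lists, filled where the day 7 adjusted p is under 0.05, with n = 2 libraries a side. Hmox1 and Ftl1 lie above 0 on day 7 and below 0 on day 3, Cp the other way, and the unlabelled circle at the upper right has under 1 CPM on average in every group. On day 3 Hmox1 (-0.68 ± 0.46) and Ftl1 (-0.18 ± 0.23) were not called, whereas Cp was called on both days.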

How the data were processed

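Counts of 8 messenger RNA libraries (SMARTER kit, per the labels) were deposited by the authors as whole numbers per gene, and per the file headers the same table holds FPKM values, a level that the authors scaled by transcript length and library. The submitters' processing notes name mm10; an aligner and counter are named neither there nor in the labels. Here, 10 broken annotation lines were left out. CPM were computed from library totals with exact 95% Poisson intervals (Python 3.11.15, pandas 2.3.3, scipy 1.17.1). Counts were filtered with filterByExpr, scaled with TMM and fitted with S7, day, their interaction and E7 in edgeR 4.0.16 (R 4.3.3; quasi-likelihood F-test, biological coefficient of variation 0.137 at 3 residual degrees of freedom). The fit was tested on counts simulated from its own fitted means and dispersions, with 200 genes changed with S7 on day 7. The changed genes were drawn from those above a minimum mean count, and other genes were left unchanged with S7, unlike in these data. The fit recovered 72% of the 2-fold and 94% of the 4-fold changes, which does not cover genes with few counts. Because the counts came from the same model, this does not check the pooling of different extracts. Nothing says that libraries came from separate cultures, so p-values measure the spread between these libraries only. Members and lists were chosen with earlier results of these data known.

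Named list genes are every called gene of a list and comparison or, above 10, the 4 largest rises and 4 largest falls among those with at least 1 CPM in the higher group. Of the listed names, 46 of 48 iron, 25 of 26 zinc and 11 of 12 copper genes were matched. The alternatives were DESeq2 1.42.0, median-of-ratios size factors, library totals, no low-count filter, no E7 term, a 1.5-fold minimum, leaving out each library and, for single ratios, 0.5 CPM added or FPKM. Figures used matplotlib 3.10.9.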

Additional observations from a re-analysis of the deposited data

Results flagged for a closer look

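The difference with S7 differed between day 3 and day 7 by the interaction term of edgeR's quasi-likelihood test (adjusted p under 0.05) in these genes, given as the day 7 minus the day 3 log2 fold change. Iron and haem genes with a positive value were Hmox1 (3.30), Ftl1 (2.0), Alas1 (1.57) and Slc48a1 (1.53). Those with a negative value were Lrp1 (-1.26), Heph (-1.55), Bmp6 (-1.73) and Cp (-2.63). Among zinc genes the values were 2.91 for Mt1, 0.72 for Slc39a3 and 0.42 for Slc39a13. Among copper genes they were 0.99 for Sod1, 0.71 for Sco1, 0.66 for Cox17, 0.65 for Slc31a2 and -0.45 for Atp7a. Of these 16 calls, those of Ftl1, Alas1, Cp and Sod1 (4 genes) held in each of the 8 fits that left out 1 library.

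In 2 of the genes described without a test, both S7 libraries lay on one side of both others on day 3 and on the other side on day 7. The day 7 minus day 3 value was 2.52 for Slc40a1 and -0.61 for Slc39a14, and neither difference was tested. By library totals, Slc39a14 lay higher with S7 on both days, whereas Slc40a1 changed side under both scalings. The fitted log2 fold change of Slc39a14 with S7 on day 7 was -0.03 ± 0.08 after TMM.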

How the results depend on the processing

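No paired analysis was possible because each extract and day has 1 library and the labels give no replicate numbers. DESeq2, library totals and the model without an E7 term each gave 2 copper genes on day 3 in place of 1. Library totals gave 5 zinc genes on day 7 in place of 10, and moved the median log2 fold change of all genes on day 7 from -0.03 to 0.19. They called 5642 genes higher and 3008 lower on day 7 (3965 and 4172 after TMM) and 3721 and 1749 between the days (2105 and 2473), 15 and 6 iron genes between the days (9 and 6), and 7 and 1 copper genes on day 7 (6 and 2) and 6 and 0 between the days (4 and 1). Without the low-count filter 3 copper genes differed between the days in place of 5, and without an E7 term 5 zinc genes in place of 3. A 1.5-fold minimum left 5 iron, 0 zinc and 0 copper genes on day 3 and 2 zinc and 4 copper genes on day 7. The causes were not tested.

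Leaving out 1 library gave 1 to 14 iron, 0 to 4 zinc, 0 to 2 copper and 257 to 3847 of all genes on day 3. On day 7 it gave 21 to 27, 4 to 9, 5 to 9 and 5003 to 8327. Between the days it gave 5 to 23, 0 to 6, 1 to 6 and 1538 to 6219. A lone library was then assumed to vary like the other groups. For the 120 single-library ratios, 46 moved beyond counting error with library totals, 42 with FPKM, 6 with 0.5 CPM added and 0 with median-of-ratios factors, and no ratio past 2-fold changed sign. Below about 3 counts, levels were not detectable.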
